A study of Mus musculus with 24 samples.

Results

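Translation initiation factors are the proteins that place the ribosome on a messenger RNA at its start codon, and their genes were compared in the ovaries of the mouse lines FL1 and DUKsi. The genes were chosen by name: every probe set (a set of short probes that reads 1 transcript) whose only annotated gene symbol starts with Eif followed by a digit from 1 to 6 was taken, leaving out the Eif2ak kinases and Eif4enif1. This gave 93 probe sets of 37 genes, of 22626 probe sets tested and 12393 genes annotated alone on a probe set. FL1 is a high fertility line that had been selected for an index of litter size and litter weight at birth, and DUKsi is an unselected line inbred by full-sib mating that came from the same genetic pool. Ovaries of 30 virgin females per line, aged 6 to 9 weeks and at metestrus, had been combined into 6 pools per line, and the RNA of each pool had been hybridized to 2 Affymetrix mouse expression arrays. The methods of the study give 5 animals per pool, which matches 30 females in 6 pools, whereas another source used here gives 6. Each pool value below is the mean MAS5 signal of its 2 arrays, on a linear scale without unit. A log2 difference below is the log2 fold change of FL1 over DUKsi, positive where FL1 was higher. Because whole ovaries were used, fewer cells of a type and less RNA per cell cannot be told apart, and neither can effects of the selection of FL1 and of the inbreeding of DUKsi.

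In the cell, eIF1 and eIF1A help the small ribosomal subunit to find the start codon, eIF2 brings the initiator tRNA, and eIF2B reloads eIF2 with GTP. The eIF4 proteins act at the cap of the messenger RNA: eIF4E binds the cap, eIF4G is the scaffold, eIF4A is the helicase that eIF4B and eIF4H stimulate, and the eIF4E-binding proteins (4E-BPs) hold eIF4E back until the TOR kinase phosphorylates them. eIF3 joins the small subunit to the messenger RNA, eIF5 triggers GTP hydrolysis by eIF2, eIF5B joins the subunits, and eIF6 keeps them apart.

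None of the 93 initiation factor probe sets passed the test between the lines, while 3.38% of all probe sets did. The test was limma with Benjamini-Hochberg adjustment over all probe sets, and an adjusted p below 0.01 counted as past it. With a fold of at least 1.5 asked in addition, the count was again 0 of 93 against 2.32% of all probe sets. At an adjusted p below 0.05 limma called 2 of the 93, which are 1 probe set each of Eif4ebp1 and Eif4ebp2, against 6.91% of all probe sets. Without adjustment 11 of the 93 had a p below 0.05 (6 higher in FL1 and 5 lower), which is 11.8% against a background of 19.8%. This unadjusted count was not stable. It was 23 without FL1 pool 3, 21 without FL1 pool 3 and DUKsi pool 4, and 9 to 14 without any other single pool. With the beta-actin ratio described below as a covariate it was 32. The unadjusted share of all probe sets was not taken in these fits, so these counts cannot be set against the array. The share of all probe sets past the adjusted test moved too. It was 4.17% without FL1 pool 3, 4.06% without both pools and 5.38% with the covariate. Without any other single pool it was 2.53% to 3.24%. The count past the test was 0 without any 1 of the 12 pools and also without FL1 pool 3 and DUKsi pool 4 together, and between 1 and 4 under 3 of the other settings at the same threshold, each a smaller share than that of all probe sets in the same fit. These are given in the closing section.

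The intervals bounded how far the lines could lie apart as read by single probe sets. For each gene the probe set of highest mean signal over the 12 pools was read first and is called the brightest below. The 95% interval of the fold change lay inside 1.5-fold either way for 35 of the 37 brightest probe sets (94.6%), against 59.5% of all genes on the array. The exceptions were Eif4ebp2 and Eif2s3y. Of all 93 probe sets, 76 (81.7%) had such an interval, against 53.5% of all probe sets on the array. Of the 56 that were not the brightest, 41 (73.2%) had one, so the bound of the brightest need not hold for the gene. A probe set was called dim where the mean of either line was below 48.4, the 20th percentile of all signals. Among the 36 genes that were not dim, the interval lay inside 1.2-fold for 23 (63.9%), against 18.5% of all such genes. Precision grows with signal, so the same shares were taken over genes with a mean signal of at least 1000. There 28 of 28 initiation factor genes (100%) had intervals inside 1.5-fold against 91.2% of 2346 genes, so most of the contrast at 1.5-fold was gone. Inside 1.2-fold lay 19 of 28 (67.9%) against 41.6%, and the median absolute log2 difference was 0.04 against 0.10. The median signal was still higher for the initiation factor genes, 3078 against 1713, so the cut did not make precision equal. These shares describe the list and were not tested against other lists.

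**Figure D1:**
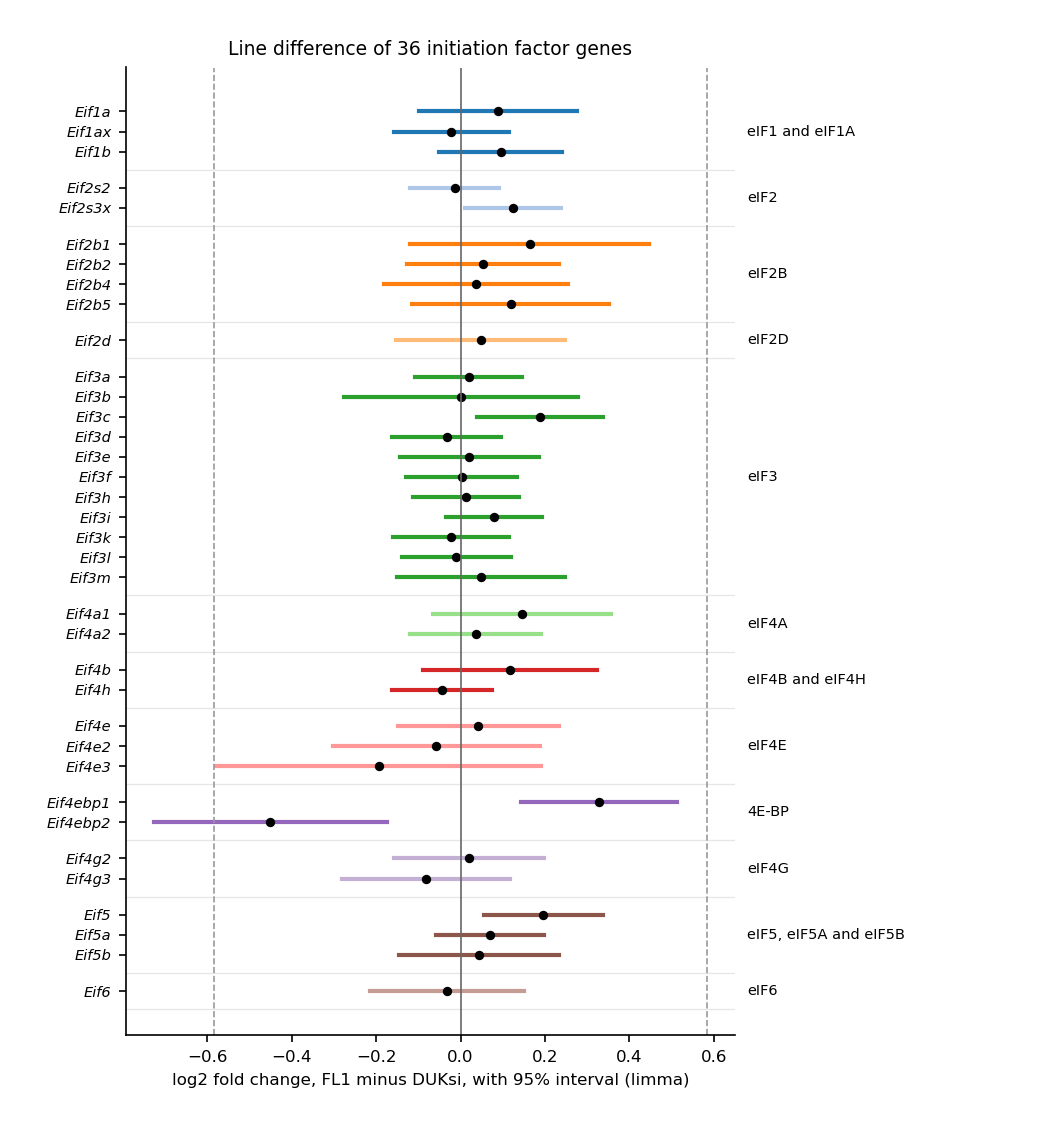
Horizontal axis, log2 difference of FL1 over DUKsi for the brightest probe set of the 36 initiation factor genes that were not dim; vertical axis, the genes by factor. Black points are limma estimates from 6 pools per line, bars are 95% intervals and dashed lines mark 1.5-fold. All bars but that of Eif4ebp2 lie between the dashed lines, and the bars of Eif4ebp1, Eif4ebp2, Eif5, Eif3c and Eif2s3x do not cross 0.

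The factors of start codon recognition came with 3 genes. Eif1ax, the X-linked gene of eIF1A, had signals from 1654 to 1996 in the FL1 pools (median 1868) and from 1770 to 1977 in the DUKsi pools (median 1866). The log2 difference was -0.02 (SE 0.06, adjusted p = 0.888). The ranges of the lines overlapped almost wholly. Its second probe set, 1449576_at, read 272 to 393 in FL1 and 220 to 321 in DUKsi and differed by 0.30 (95% interval 0.05 to 0.56, limma unadjusted p = 0.0234, adjusted p = 0.165). Eif1a and Eif1b, which encode close relatives of these factors, had log2 differences of 0.09 (95% interval -0.10 to 0.28) and 0.10 (-0.05 to 0.24).

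eIF2 consists of an alpha, a beta and a gamma subunit. The brightest probe set of the beta subunit gene Eif2s2 gave the narrowest interval of all members. It read 3577, 3858, 3986, 3814, 3723 and 3834 in FL1 pools 1 to 6 and 3653, 3875, 3954, 3839, 3820 and 3872 in the DUKsi pools. The log2 difference was -0.01 (SE 0.05, 95% interval -0.12 to 0.09, adjusted p = 0.909). None of the DUKsi pools lay outside the range of the FL1 pools. The further probe sets of Eif2s2 lay farther from 0. Of these, 1456617_a_at read 1880 ± 199 in FL1 and 2114 ± 63.0 in DUKsi (mean ± SD, n = 6 pools). Its log2 difference was -0.17 (limma unadjusted p = 0.0200, adjusted p = 0.151). Probe set 1441023_at had -0.32 (95% interval -0.55 to -0.08, limma unadjusted p = 0.0123, adjusted p = 0.113). The others had -0.19 (1417713_at), -0.16 (1448819_at) and 0.20 (1448820_a_at).

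The X-linked gamma subunit gene Eif2s3x read 3304, 3141, 2906, 3037, 3016 and 3041 in the FL1 pools and 2844, 3052, 2651, 2818, 2754 and 2805 in the DUKsi pools (1423744_x_at). DUKsi pool 2 lay above 4 of the 6 FL1 pools, so the lines overlapped. The log2 difference was 0.12 (SE 0.05), with an unadjusted p of 0.0353 and an adjusted p of 0.209 in limma. Eif2s3y, its Y-linked copy, which females lack, was dim. Probe set 1417210_at read 0.7 to 4.75 in FL1 and 0.9 to 8.65 in DUKsi, so no fold is given.

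A probe set outside the 93 bears on the alpha subunit. The study listed 1 probe set as Eif2s1, to which the annotation used here gives no gene, so that the rule did not take it up. It read 342.7, 360.2, 308.6, 299.4, 282.4 and 340.8 in the FL1 pools and 43.6, 38.1, 44.4, 49.8, 21.1 and 38.4 in the DUKsi pools. The lowest FL1 pool thus lay far above the highest DUKsi pool, and 5 of the 6 DUKsi pools were below 48.4. With DUKsi values raised to that floor, the mean of FL1 was 6.63-fold that of DUKsi, a ratio that was not tested. With the values as they were, the log2 difference was 3.08 (SE 0.19, limma adjusted p = 5.6e-08). The study picked this probe set on the same samples, and no other probe set on the array was annotated with the gene here. The genes of the beta and gamma subunits, which act in the same complex, had the log2 differences of -0.01 and 0.12 given above for their brightest probe sets.

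The 4 measured genes of the exchange factor eIF2B had brightest probe sets with log2 differences from 0.04 (Eif2b4) to 0.16 (Eif2b1), none past the test. Eif2b1, the alpha subunit, read from 572.5 in FL1 pool 3 to 1114 in FL1 pool 1, and its DUKsi pools lay between 623.1 and 831.1. The FL1 pools therefore enclosed the DUKsi pools on both sides (log2 difference 0.16, SE 0.13). Eif2d, a factor that can deliver tRNA to the ribosome outside the main route, had a log2 difference of 0.05 (SE 0.09).

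The 11 eIF3 genes formed the largest group, with 26 probe sets. Their brightest probe sets had log2 differences between -0.03 (Eif3d) and 0.19 (Eif3c), with a median of 0.01, and all 11 intervals lay inside 1.5-fold. Eif3e had a log2 difference of 0.02 (SE 0.08, adjusted p = 0.915). Eif3c, a core subunit, read 3677 ± 327 in FL1 and 3224 ± 235 in DUKsi (mean ± SD, n = 6 pools, adjusted p = 0.140). Its log2 difference was not shared by its other 3 probe sets, which gave -0.03, 0.06 and -0.31.

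Of the cap complex, the helicase genes Eif4a1 and Eif4a2 had log2 differences of 0.15 (SE 0.10) and 0.04 (SE 0.07). Eif4b had 0.12 (SE 0.10) and Eif4h, the other helper of the helicase, -0.04 (SE 0.06). The cap-binding protein gene Eif4e had 0.04 (SE 0.09), and its relative Eif4e2 had -0.06 (SE 0.11). Eif4g2, an eIF4G relative that lacks the eIF4E binding site, read 6041 to 8611 in FL1 (median 6917) and 6457 to 7506 in DUKsi (median 7034), a log2 difference of 0.02 (SE 0.08). Eif4g3, a scaffold gene proper, had -0.08 (SE 0.09). None of these 8 genes had a probe set past the test. The values above are those of the brightest probe sets, and further ones departed from them in part. They gave 0.16 and 0.24 for Eif4a1, -0.04 and -0.09 for Eif4b, and -0.20 and -0.01 for Eif4h. For Eif4e they gave -0.04 and -0.25, and for Eif4e2 0.12, -0.22 and 0.02. For Eif4g2 they gave 0.08, -0.16 and -0.49.

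Eif4e3, another cap-binding relative, showed a split within FL1. Its brightest probe set read 846.5 and 734.2 in FL1 pools 1 and 2 and 1615, 1587, 1596 and 1421 in FL1 pools 3 to 6. The DUKsi pools read 1372, 1423, 1266, 1352, 1697 and 1426. FL1 pools 1 and 2 thus lay below every other pool, and the remaining FL1 pools lay within the DUKsi range. The second probe set did not repeat the split: FL1 pools 1 and 2 read 898.7 and 1128 there, and the lowest FL1 pool was pool 3 with 539.8. The line difference was -0.19 (SE 0.18, adjusted p = 0.601) for the first and -0.25 (SE 0.16, adjusted p = 0.423) for the second.

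The 4E-BP genes had the largest differences among the brightest probe sets that were not dim, and they were taken up after their values had been seen. Eif4ebp1 (1434976_x_at) read 1022, 1218, 1258, 1058, 1082 and 1240 in the FL1 pools and 799.3, 1089, 830.1, 842.6, 982.3 and 949.5 in the DUKsi pools. Only DUKsi pool 2 reached into the FL1 range. The means were 1146 ± 104 and 915 ± 111 (SD, n = 6 pools), a log2 difference of 0.33 (95% interval 0.14 to 0.51, limma adjusted p = 0.0326). The second probe set, 1417562_at, gave nearly the same values, 1124 ± 98.9 and 908 ± 126, with 0.32 (adjusted p = 0.0513). The third, 1417563_at, had lower signals of 57.0 to 209 in FL1 and 112 to 227 in DUKsi and a log2 difference of -0.38 (SE 0.29, adjusted p = 0.508). With single pools left out, the adjusted p of 1434976_x_at lay between 0.0145 and 0.0779.

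Eif4ebp2 ran the other way. Its brightest probe set, 1417084_at, read 635.4, 923.1, 958.4, 596.8, 828.8 and 816.7 in the FL1 pools and 958.9, 1409, 960.0, 994.4, 1189 and 967.6 in the DUKsi pools. It was the only one of the 93 whose lines did not overlap (1.08%, against 4.62% of all probe sets), and FL1 pool 3 and DUKsi pool 1 were all but equal. The means were 793 ± 148 and 1080 ± 184 (SD, n = 6 pools), a log2 difference of -0.45 (95% interval -0.73 to -0.18, limma adjusted p = 0.0482). Its other probe sets above the dim floor gave log2 differences of -0.0048 (1437733_at, SE 0.17), -0.05 (1436158_at, SE 0.08) and -0.17 (1455575_at, SE 0.13). The interval of 1436158_at, -0.22 to 0.13, overlapped that of the brightest only at its end. With single pools left out the adjusted p of 1417084_at lay between 0.0225 and 0.112. A difference in opposite directions for the pair of 4E-BP genes therefore rested on 2 probe sets of Eif4ebp1 and 1 of Eif4ebp2, and neither gene passed 0.01.

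**Figure D2:**
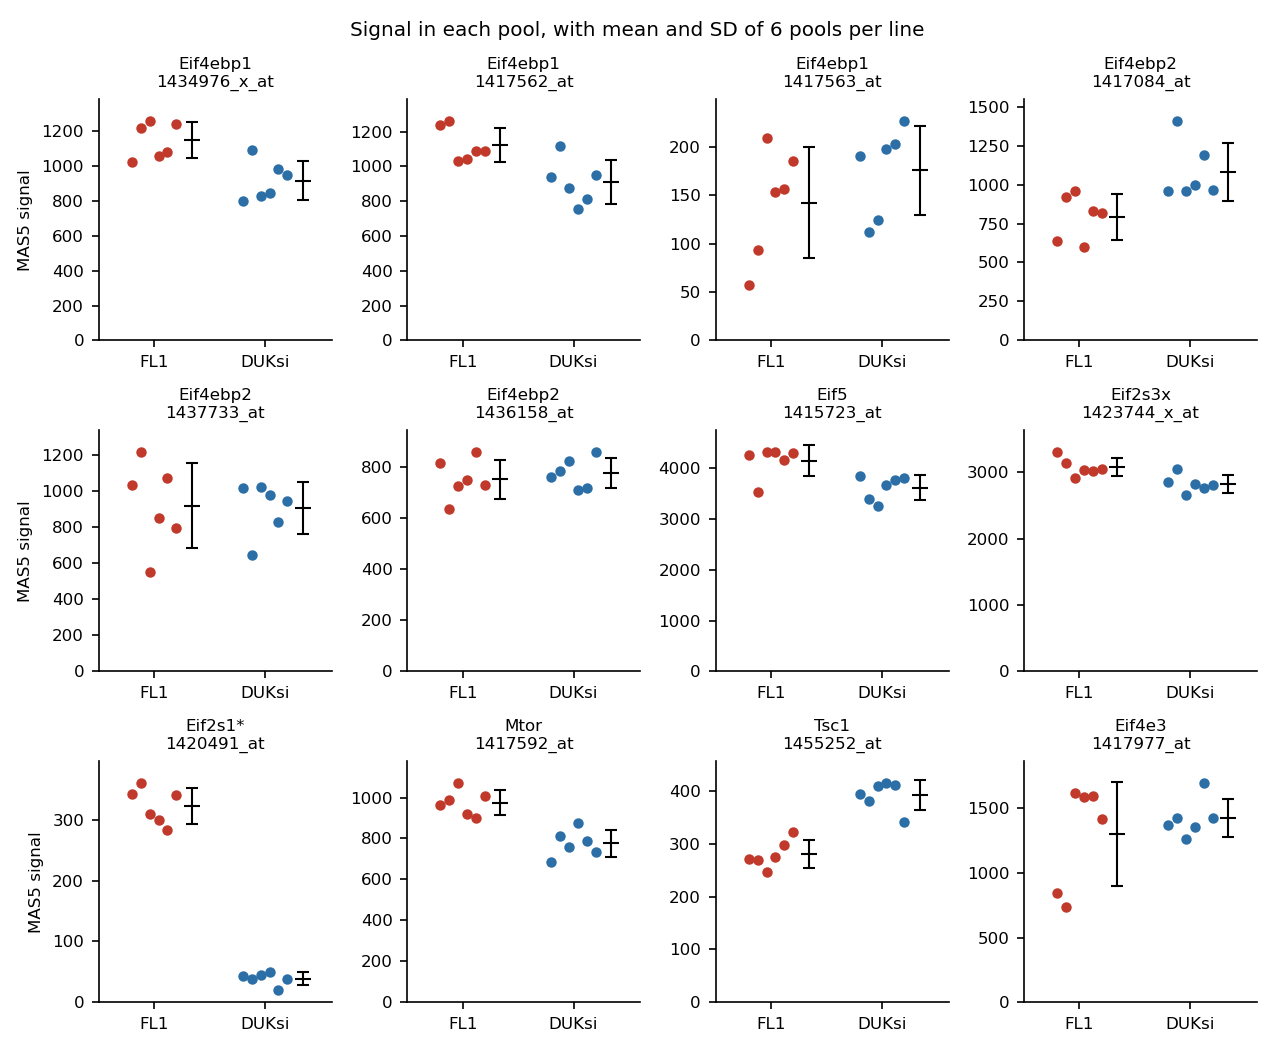
Vertical axes, MAS5 signal on linear scales that start at 0; each point is 1 pool of FL1 (red) or DUKsi (blue), and the black mark is the mean with its SD over 6 pools. The asterisk marks the probe set that the study listed as Eif2s1; its FL1 pools lie at 282.4 or more and its DUKsi pools at 49.8 or less, whereas the lines overlap in every Eif panel but this one and Eif4ebp2 1417084_at.

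Among the late factors, Eif5, the activator of GTP hydrolysis by eIF2, had the largest difference. Its brightest probe set read 4264, 3537, 4320, 4312, 4154 and 4295 in the FL1 pools and 3840, 3386, 3253, 3671, 3764 and 3798 in the DUKsi pools. Apart from FL1 pool 2, every FL1 pool lay above every DUKsi pool. The log2 difference was 0.20 (SE 0.07, adjusted p = 0.0968), and 0.05, -0.04 and -0.10 were found with its other 3 probe sets. Eif5a, a hypusine-bearing factor that also serves elongation, read 7270 to 8809 in FL1 and 7430 to 8107 in DUKsi, with 0.07 (SE 0.06). Eif5b had 0.04 (SE 0.09), and Eif6 had -0.03 (SE 0.09).

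The number of brightest probe sets above and below 0 depended on how the arrays were scaled. With the signals as deposited 25 genes lay higher in FL1 and 12 lower, with quantile normalization 17 and 20, and with all arrays set to 1 median 34 and 3. The median log2 difference of all probe sets was -0.07, -0.02 and 0.02 in these cases, and that of the 37 genes was 0.04, -0.02 and 0.12. No common direction of the group can be given from these values.

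Agreement between probe sets of 1 gene was examined for the 25 genes with at least 2 of them, which had 56 probe sets beside the brightest. For 27 of the 56 the fold change had the sign of the brightest, and for 53 the 95% intervals overlapped. All probe sets of a gene shared 1 sign for 6 genes (Eif2d, Eif3l, Eif4a1, Eif4e3, Eif4h and Eif5b). The intervals were apart for Eif3c (1415859_at), Eif2s3x (1421895_at) and Eif5 (1454664_a_at), each with a lower value than the brightest. The difference between each further probe set and the brightest was then tested in the same pools with limma. None of the 56 passed an adjusted p of 0.01, against 0.826% of all 7987 such differences on the array. Without adjustment 7 had a p below 0.05, 5 of them lower than the brightest, against 13.6% of all differences, and the smallest adjusted p among the 56 was 0.218.

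Within a gene the log2 differences spanned 0.25 in the median. Leaving out dim probe sets, the widest span was 0.71 for Eif4ebp1, between 1434976_x_at and 1417563_at (difference -0.71, SE 0.31). For Eif3c the difference of 1415859_at from the brightest was -0.50 (SE 0.18), and for Eif2s3x that of 1421895_at was -0.45 (SE 0.17). Of Eif2s2's 6 probe sets, 5 had values between -0.32 and -0.01 and 1 had 0.20. The 12 genes with a single probe set allowed no such check. Another 5 probe sets were annotated with an initiation factor gene among several genes (Eif4a3, Eif3j1 and Eif3j2, and Eif1a) and were left out, with log2 differences from -0.20 to 0.11.

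**Figure D3:**
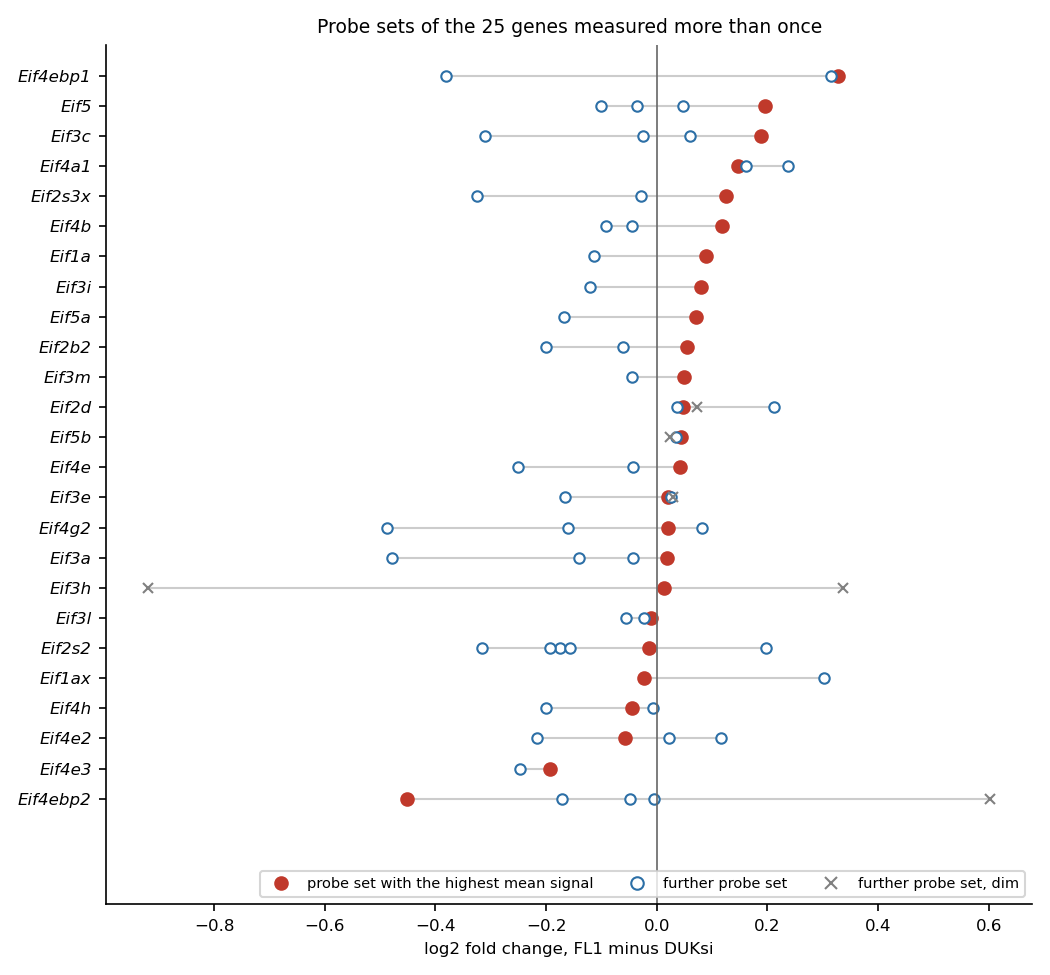
Horizontal axis, log2 difference of FL1 over DUKsi for each probe set of the 25 genes that had more than 1; vertical axis, the genes, ordered by the value of the brightest probe set. Filled points are the brightest probe sets, open points further ones and crosses dim ones. Of the 56 further probe sets 27 lie on the same side of 0 as the brightest.

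The pools of a line differed from each other more in FL1. For the 36 genes that were not dim the median SD of log2 signals over 6 pools was 0.14 in FL1 and 0.10 in DUKsi, and 27 of the 36 (75.0%) varied more in FL1, as did 63.9% of all such genes. Without FL1 pool 3 the median was 0.13, and 24 of the 36 (66.7%) varied more in FL1, against 53.9% of all such genes. FL1 pool 3 was the lowest of the 12 pools for 10 of the 36 genes, among them Eif2b1, Eif3m, Eif4b and Eif4a1, with log2 signals of -0.42, -0.39, -0.36 and -0.34 relative to the mean of the gene over all pools. Over all genes it was the lowest for 12.2%. The same pool was the highest for 6 of the 36 (Eif1a, Eif2b2, Eif2s2, Eif4ebp1, Eif4g2 and Eif5), and for 20.2% of all genes. FL1 pool 1 was the highest for 12 of the 36 genes, among them Eif2b1, Eif2b4 and Eif3b at 0.54, 0.41 and 0.39 above their means, and the highest for 10.1% of all genes. FL1 pools 1 and 3 were also the ends of the range of Eif4a1, with 7261 in pool 1 and 4784 in pool 3, while its DUKsi pools read 5049 to 6469.

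FL1 pool 3 also had the highest ratio of 3' to 5' signals of the array's control probe sets, which rises as RNA is degraded. The ratio for beta-actin was 2.45 there and 1.32 to 1.74 in the other FL1 pools, against 1.18 to 1.32 in DUKsi. The lines differed in it, with 1.67 ± 0.423 against 1.27 ± 0.0522 (SD, n = 6 pools, exact permutation p = 0.00216, two-sided, the smallest the design allows). For Gapdh the ratio was 1.53 ± 0.420 against 1.28 ± 0.146 (exact permutation p = 0.203). With the beta-actin ratio as a covariate, limma called 4 of the 93 probe sets past 0.01 (Eif2b1 1460730_at, Eif2s2 1456617_a_at, Eif3e 1439268_x_at and Eif4b 1426380_at), which is 4.3% against 5.38% of all probe sets in that fit. The highest DUKsi ratio for beta-actin (1.317) lay below the lowest FL1 ratio (1.322), so the covariate and the line could not be fully separated in that fit. The part of RNA quality in the member values was not tested further. Cell type markers moved too: the summed signal of 4 luteal genes, which included Cyp11a1, was 31299 to 36634 in FL1 and 19382 to 24941 in DUKsi, with 2 of 4 past the test, and that of 8 oocyte genes was 7428 to 9794 against 9877 to 11727, with 1 of 8 past it. All of these luteal and oocyte markers had signals above the dim floor. Of the other marker lists, 1 of 4 endothelial markers rose (Pecam1). Of 4 oviduct or surface epithelium markers 1 rose (Upk3b), while Ovgp1 had -0.80 and Krt8 0.03 without passing the test. Of 2 blood markers 1 rose (Alas2, dim), while Hba-a1 had -0.36 without passing. None of the granulosa, theca, macrophage, lymphocyte and smooth muscle markers passed the test. Nearest to it in limma were Inhbb (granulosa, -0.42, adjusted p = 0.0174), Ptprc (lymphocyte, 0.69, 0.0240) and Adgre1 (macrophage, 0.60, 0.0304). The medians of these lists were -0.11, -0.08 and 0.11, and the other markers of the lists without a call had adjusted p-values of 0.0945 or more. The part of cell composition in the member values was not tested.

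**Figure D4:**
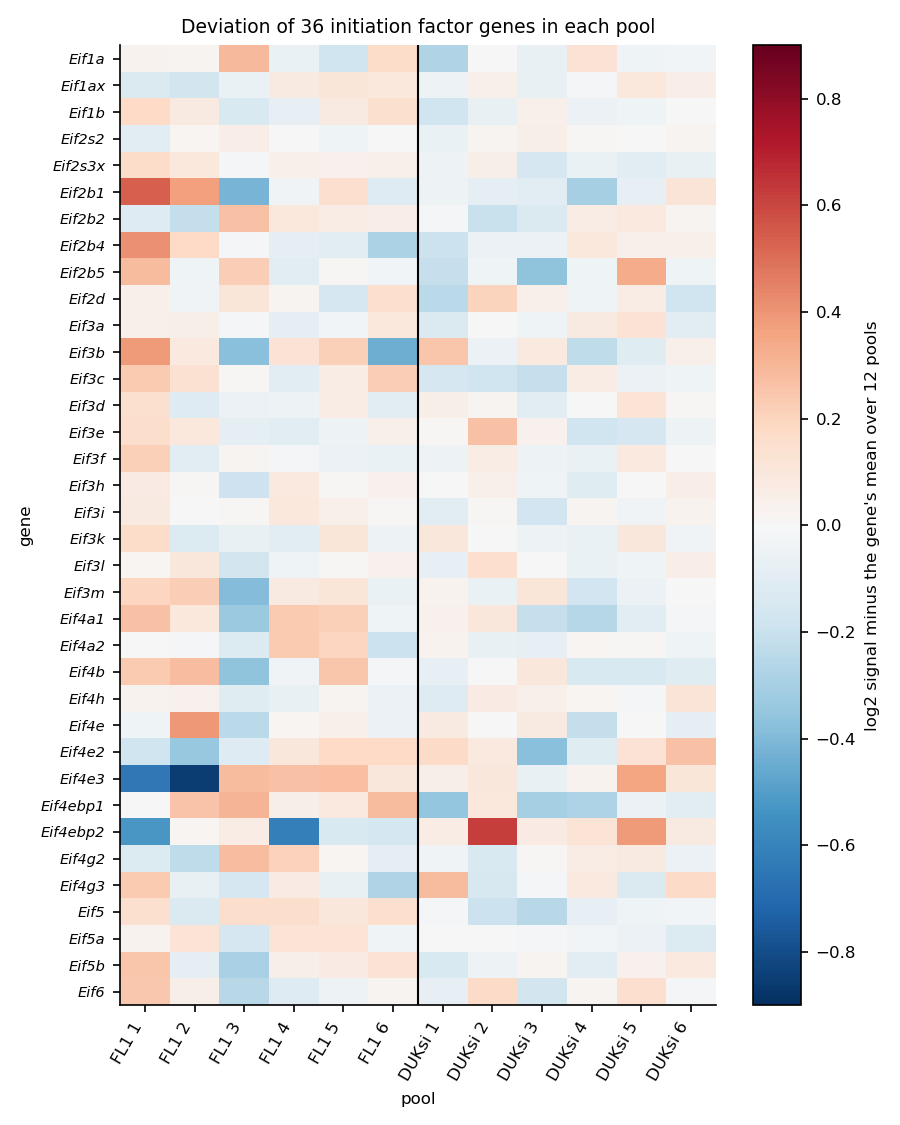
Colour, log2 signal of the brightest probe set minus its mean over the 12 pools, from -0.9 (blue) to 0.9 (red); columns are pools, with FL1 left of the black line and DUKsi right of it, and rows are the 36 genes by factor. The darkest cells are Eif4e3 in FL1 pools 1 and 2, Eif4ebp2 in FL1 pools 1 and 4 and DUKsi pool 2, and Eif2b1 in FL1 pool 1.

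Genes around initiation were read from 5 lists of 44 genes, of which 39 were measured. The lists were the eIF2 kinases and phosphatase subunits, stress transcripts downstream of eIF2, the TOR pathway with kinases of initiation, partners of the initiation complexes, and elongation and termination factors. By the brightest probe set 1 of the 39 rose, 1 fell and 37 did not pass the test, with a median log2 difference of 0.05. These 2 of 39 (5.13%) compare with 3.74% of all genes by their brightest probe sets, so the count is near the background. Both genes belonged to the list of the TOR pathway with kinases of initiation, in which 8 of 11 genes were measured and 2 of the 8 passed. That list also held Mknk1 and Mknk2, and a change of the TOR pathway as such was not tested.

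Mtor, the kinase itself, read 964.9, 985.6, 1072, 918.6, 900.2 and 1008 in the FL1 pools and 686.5, 814.6, 758.2, 873.4, 788.3 and 735.0 in the DUKsi pools (1417592_at). The lines did not overlap. The log2 difference was 0.33 (limma adjusted p = 0.00996), just past the threshold. The call held under 6 of 26 other settings, with adjusted p-values up to 0.0458. It was lost when any 1 of 11 pools was left out, at adjusted p-values up to 0.0281, and held without DUKsi pool 4. The other probe set of Mtor, 1436267_a_at, had 0.13 (adjusted p = 0.736).

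Tsc1, which restrains the TOR kinase, read 271.7, 269.9, 246.3, 275.2, 296.6 and 321.4 in FL1 and 393.5, 380.0, 409.4, 414.8, 410.9 and 341.6 in DUKsi (1455252_at), again without overlap. The log2 difference was -0.49 (adjusted p = 0.00332), and its second probe set had -0.27 (adjusted p = 0.484). The call held under 18 of 26 settings, with adjusted p-values up to 0.0332, and was lost at 0.0112 without DUKsi pool 5.

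None of the 6 eIF2 kinase and phosphatase genes passed the test, with Eif2ak4 at 0.41 (adjusted p = 0.115) and Eif2ak3 at -0.19 (adjusted p = 0.0985). The 5 stress transcripts, Atf4 and Ddit3 among them, had a median of 0.19 and none passed. Of the 11 partners none passed, with Pabpc4, a poly(A)-binding protein, at 0.38 (adjusted p = 0.0355). Of the 9 measured genes in the list of elongation and termination factors none passed, with Eef1e1 at 0.38 (adjusted p = 0.0192) and Gspt2 at -0.34 (adjusted p = 0.0484). Eef1e1 stands in that list by its symbol, and a role in elongation was not examined.

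**Figure D5:**
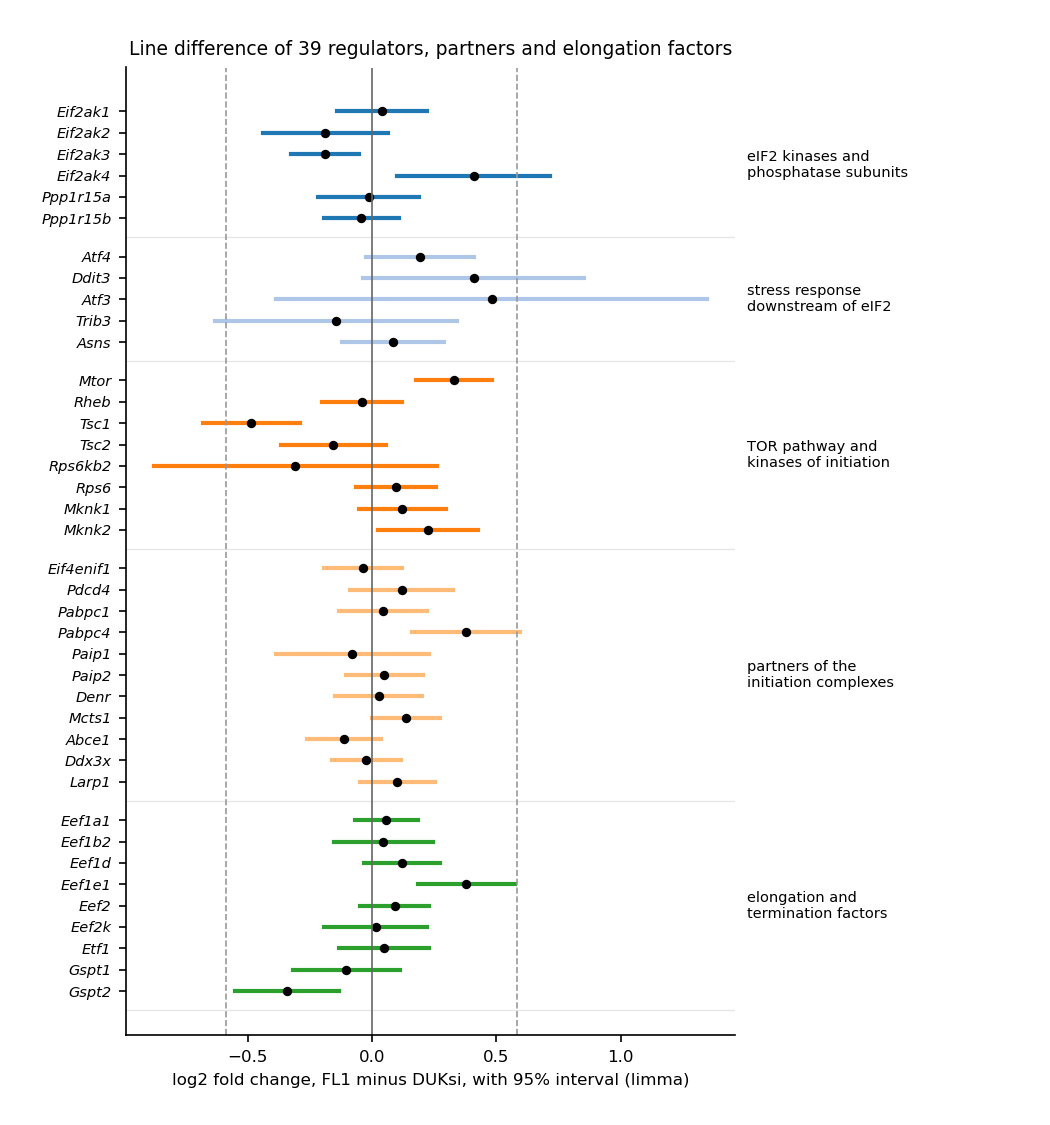
Horizontal axis, log2 difference of FL1 over DUKsi for the brightest probe set of the 39 measured genes around initiation; vertical axis, the genes by list. Points are limma estimates from 6 pools per line, bars are 95% intervals and dashed lines mark 1.5-fold. Mtor, to the right of 0, and Tsc1, to the left, are the genes past an adjusted p of 0.01.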

How the data were processed

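The deposited values were intensity signals on a linear scale, made by the authors in MAS5 with each array scaled to 1 target level. MAS5 is the Affymetrix Microarray Suite; the genome build is not given in the sources used here. Gene names came from the platform annotation supplied with the values. The 2 arrays of each pool were averaged, log2 was taken, and 22626 probe sets (64 controls left out) were fitted with limma 3.58.1 in R 4.3.3 (empirical Bayes with trend, Benjamini-Hochberg adjustment). The scripts were tested on simulated data. Differences between probe sets of a gene were fitted the same way. The p-values weigh the line difference against the spread between pools, not between animals, and the 6 pools per line limit the precision. In the qPCR of the study, single animals varied more than pools of the same line. Alternatives were single arrays, other scalings, filters, tests and covariates, and leaving out each pool; leaving out FL1 pool 3 with DUKsi pool 4 was added after seeing the data. Pool numbers were not used to pair the samples. Deviations of same-numbered pools correlated between -0.32 and 0.15, and 6 such values cannot decide whether the numbers pair the pools. The members and lists were chosen with earlier results of these data known. Named were genes past the test or in the study's own list, the gene of highest signal in each factor group, genes whose probe sets differed, and Eif2s3x and Eif2s3y. Others were added after their values were seen (Eif4ebp1, Eif4ebp2, Eif5, Eif3c, Eif2b1, Eif4e3, further probe sets and the pathway genes that missed the test).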

Additional observations from a re-analysis of the deposited data

Results flagged for a closer look

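In groups of 6 pools a value was looked at again where its gap to the nearest other pool exceeded Dixon's critical share of the line's range, as chance alone gives in about 1 of 20 groups. This held for 6 of 62 groups. FL1 pool 3 was apart for Eif2s2 1456617_a_at (2262, other FL1 pools 1694 to 1875), for the dim Eif2s3y 1417210_at (4.75, others 0.7 to 2.05) and for the beta-actin 3' to 5' ratio (2.45, others 1.32 to 1.74). FL1 pool 2 was apart for Eif5 1415723_at (3537, others 4154 to 4320). DUKsi pool 5 was apart for Eif4e3 1417977_at (1697, others 1266 to 1426), and DUKsi pool 6 for the dim Eif4ebp2 1456613_at (57.3, others 9.15 to 27.2).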

How the results depend on the processing

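The count of initiation factor probe sets past the test moved from 0 to 2 with all 24 arrays and the pool as a random block (Eif4ebp1 1434976_x_at, adjusted p 0.00524, and Eif4ebp2 1417084_at, 0.0023), to 1 with all arrays set to 1 median (Eif4ebp1 1434976_x_at, 0.00526), to 4 with the beta-actin ratio as a covariate, and to 2 at an adjusted p below 0.05. In these fits 5.65%, 3.82%, 5.38% and 6.91% of all probe sets passed, against 2.15%, 1.08%, 4.3% and 2.15% of the members. The random block fit takes both arrays of a pool as observations, with 1 correlation for all probe sets. For Eif4ebp2 1417084_at its SE was 0.0985, against 0.130 with pool means, and the log2 difference was -0.45 in both. The causes were not tested. The count past the test was 0 in the other settings, from 0 to 0 without single pools, and the count with 1.5-fold was 0 throughout. The count of differing probe sets was 0 in each setting in which it was run, which leaves out the random block and the methods' t-test. The pool number as a replicate block gave 0 for all 3 counts. Mtor and Tsc1 then had limma adjusted p-values of 0.0458 and 0.0301, and whether the numbers pair the pools is not known. Of 781 values for 29 probe sets, 28 lost the call (all of Mtor or Tsc1), 6 gained it and 45 changed sign, 14 of these by more than their SE. In log2 fold change these were, with the second array alone, Eif4h 1416941_s_at 0.0379, Eif4ebp1 1417563_at 0.0383 and Eif4ebp2 1455575_at 0.0128; with quantile normalization, Eif5a -0.0292; with 1 median, Eif1ax 0.065, Eif2s2 0.0732, Eif4h 0.0449, Eif6 0.0552 and Eif4ebp2 1436158_at 0.0388; and with the covariate, Eif2b2 -0.0789, Eif4g2 -0.13, Eif6 0.0919, Eif4e3 1417978_at 0.0417 and Eif4ebp2 1437733_at 0.38. None of these was past the test. The beta-actin and Gapdh ratios kept their direction and side of 0.05 in the settings tried.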
